A study of Mus musculus with 12 samples.

Results

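The 7 genes described here encode vimentin and other proteins of the cytoskeleton: *Vim*, *Lmna*, *Msn*, *Gsn*, *Fscn1*, *Cnn2* and *Cotl1*. They were taken by name from the 770 genes of the NanoString nCounter Neuroinflammation panel, which counts RNA molecules with color-coded probes and no amplification, and all 7 names were present. RNA was measured in microglia, the resident macrophages of the CNS, from mice, with the strain given as C57B6 in the labels and C57BL/6 in the methods, that were aged (over 80 weeks) or adult (12 to 20 weeks). The dissociated cells were enriched by CD11b, fixed and permeabilized for staining, and sorted. Aged microglia were divided by phosphorylation of ERK1/2 into P-ERK1/2 High (samples 2, 5, 7 and 8) and P-ERK1/2 Low (samples 3, 6, 9 and 12), whereas adult microglia (samples 1, 4 and 10) were not divided by this phosphorylation. Adult sample 11 carries a label that excludes it for poor quality and was kept out of all group values. No mice or cells received a treatment according to the labels, and each sample pooled one male and one female. The methods of the study describe a gate on cells negative for Ly6G, intermediate for CD45 and positive for YFP, a reporter in *Cx3cr1*-expressing cells. The study nevertheless describes tamoxifen, given at a shorter interval before analysis in adult than in aged mice, and this interval cannot be told apart from age. The sources do not say whether a High and a Low sample came from the same mice. Within one sample, fewer cells of a type and less RNA per cell cannot be told apart.

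Vimentin builds cytoplasmic intermediate filaments, which carry mechanical load, mark reactive astrocytes and are also present in macrophages. Lamin A/C, encoded by *Lmna*, forms the meshwork under the nuclear membrane and belongs to the same filament family. The remaining genes concern actin. Moesin (*Msn*) ties actin filaments to the plasma membrane, gelsolin (*Gsn*) severs and caps filaments, and fascin (*Fscn1*) packs them into the parallel bundles of thin cell protrusions. Calponin 2 (*Cnn2*) and coactosin-like protein (*Cotl1*) bind filaments along their length. Microglia move, extend processes and engulf material by remodeling these structures.

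RefSeq promoter sequences (GRCm38.p6) were available for 6 of the 7 genes, with 9 start sites in all. *Cotl1* had no entry. The 250 bases upstream of the start are printed for *Vim*, *Msn* and *Fscn1*, because these are the 3 genes called between P-ERK1/2 High and Low and each has a single start in the table. They lie at chr2:13574061-13574310, chrX:96095795-96096044 and chr5:142960105-142960354, all on the plus strand, and run 5′ to 3′ with the matches to the searched motifs in capitals.
*Vim*: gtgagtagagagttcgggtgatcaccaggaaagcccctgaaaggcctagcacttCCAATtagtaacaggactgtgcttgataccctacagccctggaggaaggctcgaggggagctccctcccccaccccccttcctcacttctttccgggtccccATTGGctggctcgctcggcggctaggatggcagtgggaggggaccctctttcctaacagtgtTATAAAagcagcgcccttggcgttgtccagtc
*Msn*: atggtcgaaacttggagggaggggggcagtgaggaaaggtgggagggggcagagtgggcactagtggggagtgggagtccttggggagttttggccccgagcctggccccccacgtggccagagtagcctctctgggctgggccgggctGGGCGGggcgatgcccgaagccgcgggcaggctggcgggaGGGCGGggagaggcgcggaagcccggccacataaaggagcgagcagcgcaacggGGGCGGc
*Fscn1*: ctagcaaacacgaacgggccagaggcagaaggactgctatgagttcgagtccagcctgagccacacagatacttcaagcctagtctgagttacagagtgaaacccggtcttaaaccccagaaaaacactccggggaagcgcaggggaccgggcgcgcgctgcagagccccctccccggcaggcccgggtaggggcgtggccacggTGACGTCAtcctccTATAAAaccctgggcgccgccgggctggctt
The motifs searched on both strands were the TATA box (TATAAA), the GC box (GGGCGG), the CCAAT box (CCAAT), the AP-1 site (TGANTCA), the cyclic AMP response element (TGACGTCA), an ETS site (CCGGAAGT) and the CArG box. The *Vim* window held a TATA box beginning 32 bases before the start and 2 CCAAT boxes, 1 of them on the minus strand. The *Msn* window had 3 GC boxes and no TATA box, with a GC content of 71.6% against 58.4% for *Vim*. The *Fscn1* window had a TATA box and, just before it, a cyclic AMP response element. Over 32851 promoter windows of this length, 12.4% held the TATA box, 32.7% the GC box, 33.8% the CCAAT box and 1.55% the cyclic AMP response element. The AP-1 site, present in 6.75% of all windows, had no match in the 9 windows of these genes. A CArG box, present in 1.47% of all windows, was found for *Cnn2* alone among them. These matches describe the letters of the windows and show no binding.

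The values deposited are counts scaled so that the 13 housekeeping genes have the same geometric mean in every sample. The counted molecules per sample differed between groups, with 650965 to 1539936 in P-ERK1/2 High against 123798 to 157209 in P-ERK1/2 Low, 137980 to 326575 in adult and 1464433 in sample 11. All 84 values of the 7 genes over 12 samples came from counts above the negative-control background (mean plus 2 SD of 8 probes). The lowest of them was 201 counts, and the highest background was 41.9 counts. All 7 genes were therefore measured in every sample. The deepest group was also the group with the highest *Vim* and *Msn*, and the part of depth in the differences was not tested.

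*Vim* was high in every P-ERK1/2 High sample. Its normalized value was 208654, 155575, 129257 and 217835 in High samples 2, 5, 7 and 8, against 21282, 20249, 20187 and 26771 in Low samples 3, 6, 9 and 12. Adult samples 1, 4 and 10 had 12554, 24935 and 12188. The lowest High sample lay far above the highest sample of either other group, whereas Low and adult overlapped because adult sample 4 reached the level of the Low samples. The group means were 177830 ± 42447 (SD, n = 4) in High, 22122 ± 3140 (SD, n = 4) in Low and 16559 ± 7256 (SD, n = 3) in adult. The log2 fold change of High over Low was 2.98 ± 0.24 (SE), which is 7.91-fold, and ranked 9th among the increases of the 770 genes. Vimentin RNA alone made up 14.1% to 23.9% of all gene counts in the High samples, 4.42% to 5.27% in the Low samples and 3.58% to 6.56% in adult samples. Counting error on these shares was small, as the widest 95% Wilson interval was ± 0.124 percentage points, an interval that covers counting error only.

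**Figure D1:**
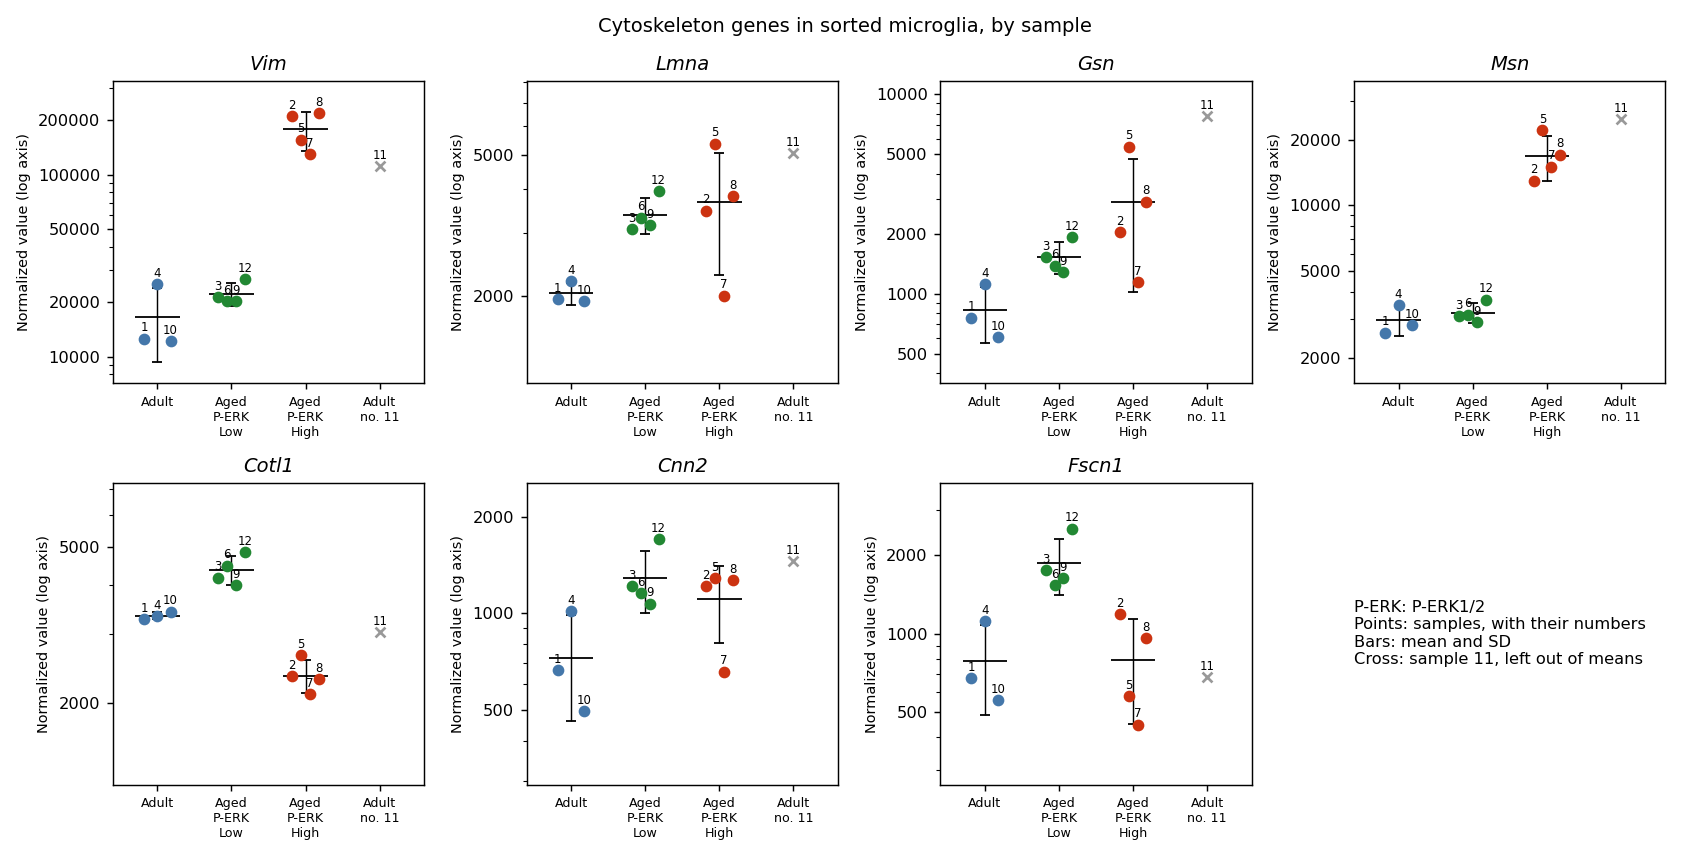
Normalized values of the 7 genes in each sample on log axes, with 1 panel per gene. Points are samples with their numbers, bars give mean and SD (n = 3 adult, 4 Low, 4 High), and the cross is adult sample 11, left out of the means. *Vim* and *Msn* are separated upward in P-ERK1/2 High, *Cotl1* is lowest there, and *Fscn1* is highest in P-ERK1/2 Low.

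*Msn*, the membrane linker, had the same order of groups as *Vim*. The normalized value was 12953, 22109, 15040 and 17065 in High samples 2, 5, 7 and 8. It was 3087, 3145, 2905 and 3688 in Low samples 3, 6, 9 and 12 and 2600, 3493 and 2809 in adult samples 1, 4 and 10. Every High sample thus lay above every other kept sample, and Low and adult overlapped. The mean was 16792 ± 3922 (SD, n = 4) in High and 3206 ± 337 (SD, n = 4) in Low, with a log2 fold change of 2.37 ± 0.23 (SE), or 5.15-fold. Between Low and adult the log2 fold change was 0.12, with a 95% interval from -0.26 to 0.49. Although the groups fell in the same order, the sample with the most *Msn* in High was sample 5, whereas for *Vim* it was sample 8.

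*Lmna*, the lamin gene, did not separate High from Low. Normalized values of 3479, 5369, 2006 and 3814 were measured in High samples 2, 5, 7 and 8 and 3080, 3323, 3162 and 3955 in Low samples 3, 6, 9 and 12. In adult samples 1, 4 and 10 it was 1960, 2202 and 1935. The Low samples all exceeded the adult samples, while High was spread across the range of both, from sample 7 at the adult level to sample 5 above all others that were kept. The log2 fold change was 0.04 for High over Low (95% interval -0.59 to 0.67) and 0.73 ± 0.15 (SE) for Low over adult.

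*Gsn* varied most among the High samples. Its normalized value was 2044, 5472, 1140 and 2898 in High samples 2, 5, 7 and 8, which is a 4.80-fold range within the group. The Low samples 3, 6, 9 and 12 had 1521, 1381, 1287 and 1920, and adult samples 1, 4 and 10 had 758, 1112 and 605. Adult was the lowest group without overlap, although High sample 7 exceeded adult sample 4 only narrowly, and High and Low overlapped. The log2 fold change of High over adult was 1.62 ± 0.47 (SE) and met the threshold for a call. It no longer did without High sample 5, where it was 1.24, High sample 8 (1.55), adult sample 1 (1.59) or adult sample 10 (1.42). Conversely, without High sample 7 the change of High over Low rose from 0.71 to 1.08 and met the threshold.

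*Fscn1*, the actin-bundling gene, was highest in P-ERK1/2 Low. Its normalized value was 1759, 1543, 1632 and 2535 in Low samples 3, 6, 9 and 12, against 1189, 578, 448 and 962 in High samples 2, 5, 7 and 8 and 674, 1119 and 556 in adult samples 1, 4 and 10. All Low samples lay above all others, and High and adult occupied the same range. Low over adult gave a log2 fold change of 1.29 ± 0.28 (SE), and High over Low gave -1.31 ± 0.32 (SE). Both comparisons use the same Low samples, so the 2 differences are not independent.

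*Cotl1* was the steadiest of the 7 genes and split into 3 separate levels. The samples had normalized values of 4174, 4473, 3999 and 4845 in Low samples 3, 6, 9 and 12 and 3276, 3326 and 3420 in adult samples 1, 4 and 10. High samples 2, 5, 7 and 8 had 2341, 2650, 2113 and 2306. No group overlapped another, with Low highest and High lowest. The differences were nevertheless small, with a log2 fold change of -0.89 ± 0.20 (SE) for High over Low, 0.38 ± 0.13 (SE) for Low over adult and -0.51 for High over adult. None of them passed the fold limit as deposited, though some did under other scalings given below.

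*Cnn2*, the calponin gene, was lowest in adult microglia. Its normalized value was 1213, 1153, 1073 and 1702 in Low samples 3, 6, 9 and 12 and 665, 1013 and 497 in adult samples 1, 4 and 10. In High samples 2, 5, 7 and 8 it was 1214, 1291, 658 and 1267. The Low samples exceeded the adult samples, though sample 9 and adult sample 4 were close, and High sample 7 lay below every Low sample and within the adult range, whereas the other High samples lay within the Low range. The log2 fold change was 0.86 ± 0.27 (SE) for Low over adult and -0.24 for High over Low (95% interval -0.84 to 0.35).

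A gene was called where limma, fitted on all 770 genes, gave p below 0.01 and an absolute log2 fold change above 1. Because the genes were chosen with results of these samples known, their calls are a description and nothing is read from them. Between P-ERK1/2 High and Low, 3 of the 7 genes were called, *Vim* and *Msn* higher and *Fscn1* lower, beside 37.8% of all genes called. In that comparison 28.2% of all genes were called higher and 9.61% lower. The High and Low samples did not overlap for 4 of the 7 genes, beside 49.4% of all genes. Between P-ERK1/2 Low and adult, only *Fscn1* was called, and it was higher in Low, beside 10.8% of all genes called and 8.05% called higher, and 5 of the 7 genes did not overlap (36.5% of all genes). All 7 log2 fold changes of Low over adult were above 0, beside 435 of the 770 genes, with a median of 0.73 against 0.10 over all genes. This did not hold under every scaling, since *Vim* (-0.32), *Lmna* (-0.09), *Msn* (-0.70) and *Cotl1* (-0.43) fell below 0 with the positive controls, *Vim*, *Msn* and *Cotl1* with quantile normalization, *Msn* and *Cotl1* with the panel total with and without *Vim*, and *Msn* marginally with median-of-ratios scaling. Between P-ERK1/2 High and adult, *Vim*, *Msn* and *Gsn* were called, all higher in High, beside 36.9% of all genes called and 29.2% called higher, and 4 of the 7 did not overlap (50.3% of all genes). The median change of the 7 genes was 0.04 for High over Low, against 0.26 over all genes, and 0.77 for High over adult, against 0.35. The 3 comparisons share their samples in pairs and are given side by side only.

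**Figure D2:**
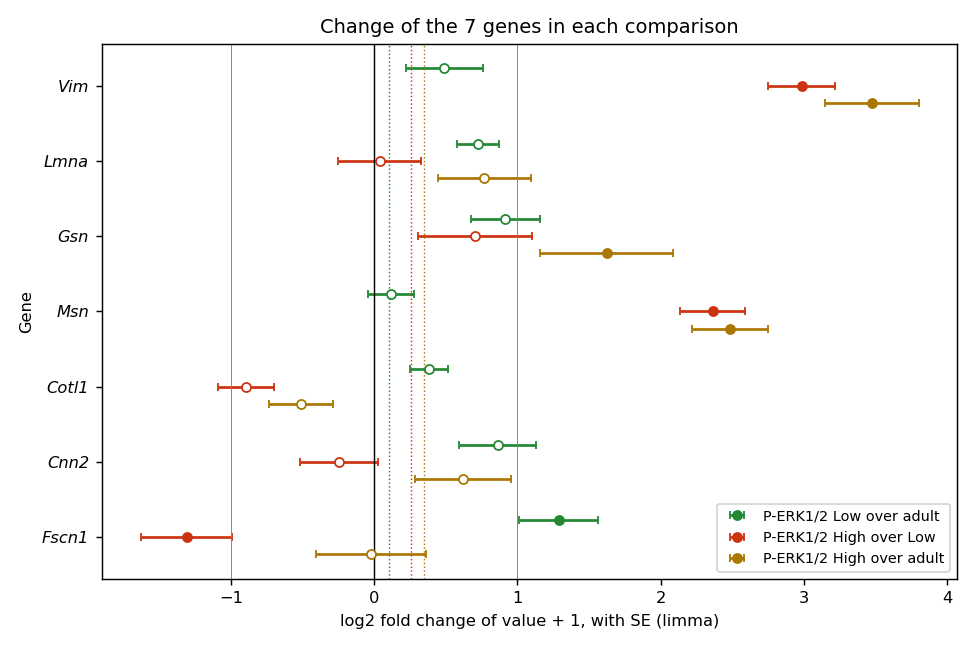
Log2 fold change (x axis, value + 1) with SE for each gene in the 3 comparisons, with filled points for called and open points for uncalled differences. Dotted lines mark the median over all 770 genes in the same color, and grey lines mark the fold limit of 1 on the log2 scale. *Vim* and *Msn* stand at the right for both High comparisons, and *Fscn1* moves in opposite directions in Low over adult and High over Low.

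The genes also differed in how much they varied within a group. In P-ERK1/2 High the SD of the log2 values was 0.95 for *Gsn*, 0.65 for *Fscn1*, 0.59 for *Lmna* and 0.47 for *Cnn2*, but 0.36 for *Vim*, 0.33 for *Msn* and 0.13 for *Cotl1*. The median SD over all genes in High was 0.43. High sample 7, the shallowest of its group, was the lowest for 6 of the 7 genes, all except *Msn*, and High sample 5, the deepest, was the highest for 5. Low sample 12, the shallowest, was the highest of its group for all 7 genes, and adult sample 4, the deepest kept adult, was the highest for 6. Leaving out adult sample 4 brought *Gsn* (1.15) and *Cnn2* (1.14) past the fold limit in Low over adult, so that 3 genes were called in place of 1.

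Sample 11, the excluded adult sample, did not resemble the kept adult samples in these genes. The normalized value in sample 11 was 110962 for *Vim*, 24728 for *Msn* and 7774 for *Gsn*, which is 6.70, 8.33 and 9.42 times the adult mean. *Lmna* (5049) and *Cnn2* (1454) were also above all kept adults, whereas *Fscn1* (681) lay within their range and *Cotl1* (3033) below it. With sample 11 counted as an adult, *Vim* was the one gene called in High over adult, at a log2 fold change of 2.77, and *Gsn* (0.80) and *Msn* (1.72) were no longer called. *Fscn1* remained called in Low over adult at 1.32, while *Vim* in Low over adult changed sign to -0.22 and *Msn* to -0.65.

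The size of each difference depended on how the samples were brought to one scale. Under 7 scalings, the log2 fold change of *Vim* in High over Low ranged from 1.02 with quantile normalization to 4.97 with the positive controls alone, and that of *Msn* from 1.34 with the panel total to 4.36 with the positive controls. Both were higher in High under all 7. *Fscn1* was lower in High under 6 scalings, down to -2.34, but turned to 0.68 with the positive controls, and *Cotl1* turned from as low as -1.92 to 1.09. *Cotl1* was called lower in High over Low with median-of-ratios scaling (-1.15), quantile normalization (-1.37), the panel total (-1.92) and the panel total without *Vim* (-1.69). The median over all genes also moved from -0.76 with the panel total to 2.15 with the positive controls, and the calls from 59 higher and 311 lower to 659 higher and 0 lower, compared with 217 and 74 as deposited. Relative to the median of all genes, *Vim* lay between 1.12 and 2.82, *Msn* between 1.60 and 2.20, *Cotl1* between -1.27 and -1.06 and *Fscn1* between -1.76 and -1.47 under the same 7 scalings. The scaling to the positive controls, and 1 to the panel total without *Vim*, were added after seeing the data. Quantile normalization moved *Vim* by more than the median of all genes, which was -0.10 with it and 0.26 as deposited. In High over adult it brought *Vim* from 3.48 to 0.89 and *Gsn* from 1.62 to 0.56, so that both lost their call, and the panel total brought *Gsn* to 0.21. *Gsn* was also not called with median-of-ratios scaling (1.25), the panel total without *Vim* (0.45) or a plain test with unequal variances. *Cotl1* was called lower in High over adult with quantile normalization (-1.53), the panel total (-1.93) and the panel total without *Vim* (-1.69). *Lmna*, *Gsn* and *Cnn2* had signs in High over Low that changed with the scaling. In Low over adult, *Fscn1* lost its call with the panel total (0.90), the panel total without *Vim* (0.90), quantile normalization (0.88) and the positive controls (0.47).

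**Figure D3:**
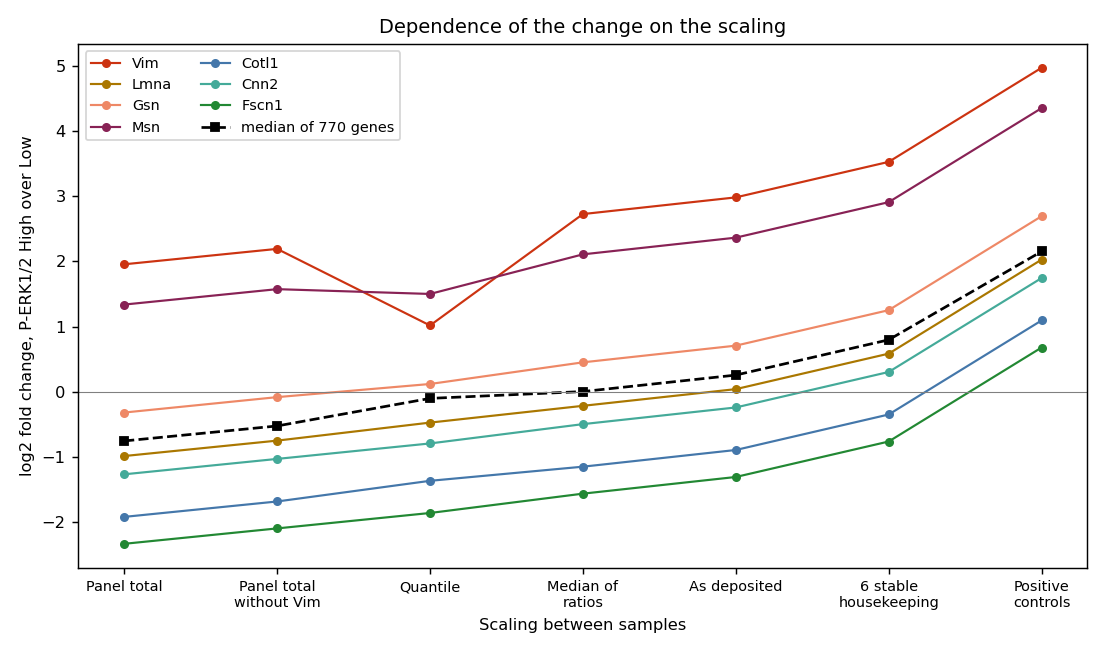
Log2 fold change of P-ERK1/2 High over Low (y axis) for each gene under 7 scalings between samples (x axis), with the median of all 770 genes as a dashed line. Most lines shift together, *Vim* drops apart from them with quantile normalization, *Vim* and *Msn* stay above the median line, and *Cotl1* and *Fscn1* stay below it.

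The pattern of each gene over the 11 kept samples was compared with all other genes by the root mean square difference of the centered log2 values, where 0 would be an identical pattern. The genes closest to *Vim* were *Pmp22* (0.35), a peripheral myelin protein, *Axl* (0.37), a receptor tyrosine kinase for dying cells, and *Dock1* (0.40), an activator of Rac, against a median of 1.55 over all genes. Closest to *Msn* were *Vamp7* (0.13), a vesicle fusion protein, *Lamp1* (0.18), a lysosomal membrane protein, and *Atg3* (0.19), an enzyme of autophagy. *Cotl1* was nearest to *Bola2* (0.12), *Rhoa* (0.13) and *Pttg1* (0.15), and *Fscn1* to *Topbp1* (0.18), *Fcgr2b* (0.23) and *Itga6* (0.30). For *Lmna* they were *Ptpn6*, *Fcer1g* and *Parp1* (0.17 to 0.19), for *Gsn* *F3*, *Clic4* and *Ncaph* (0.23 to 0.26) and for *Cnn2* *Timp1*, *Mcm2* and *Ldha* (0.22 to 0.26). Among the 7 genes themselves, *Lmna* and *Cnn2* were the most alike (0.26), followed by *Lmna* and *Gsn* (0.45) and *Vim* and *Msn* (0.52). *Vim* and *Fscn1* were the least alike (1.94).

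A further 23 panel genes of the cytoskeleton were examined as a list compiled by general knowledge, of which *Arhgap24* was known beforehand to be high in P-ERK1/2 High. Between High and Low, 5 of the 23 rose and 5 fell (43.5% called, beside 37.8% of all genes), with a median log2 fold change of 0.14 against 0.26 over all genes. The largest change was that of *Arhgap24*, which encodes an inactivator of Rac, at 3.68 ± 0.32 (SE), given without a p because it was known. Its value was 727.9 to 2053 in High and 67.8 to 110.8 in Low, where only 1 of 4 samples exceeded background. *Dock1*, which activates Rac, rose by 2.30 (adjusted p = 1.3e-05), from 147.2 to 186.4 in Low to 597.4 to 988.2 in High. *S100a10*, a membrane-linked S100 protein, rose by 1.47 (adjusted p = 0.0014), and *Stmn1*, the microtubule-destabilizing stathmin, by 1.57 (adjusted p = 0.0073). *Was*, an activator of actin branching in blood cells, was lower in High by -1.72 (adjusted p = 0.00064), with at most 159.5 in High against 305.0 to 399.7 in Low. *Vav1*, a guanine nucleotide exchange factor of blood cells, was lower by -1.25 (adjusted p = 0.0047). The 4 other called genes had log2 fold changes between -1.20 and 1.06, and 3 of them exceeded background in at most 1 Low sample. *Stmn1* and *Vav1* lost their call without High sample 5 (1.23 and -0.93), and *Was* (0.25) and *Vav1* (0.73) turned positive with scaling to the positive controls.

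Grouped by role, the 11 genes of actin signalling had 2 that rose and 3 that fell in High over Low, and the 5 microtubule genes had 2 and 1. Of 4 genes for intermediate filaments and the nuclear envelope 1 fell, and of 3 adhesion and membrane linkers 1 rose. Between Low and adult, 4 of the 23 genes were called, all of which rose (17.4% called, beside 10.8% of all genes), and the median was 0.40 against 0.10. They were *Lmnb1*, encoding lamin B1, at 1.24 (adjusted p = 0.0028), *S100a10* at 1.18 (adjusted p = 0.0047), *Stmn1* at 1.16 (adjusted p = 0.0036) and *Was* at 1.11 (adjusted p = 0.0024). The Low samples had 189.3 to 274.9 of *Lmnb1* and the adult samples 77.1 to 103.6. With sample 11 counted as adult, *Was* alone kept its call. Between High and adult, 6 rose and 1 fell, which was *Vav1* (30.4% called, beside 36.9% of all genes). The 6 were *Dock1* (2.91), *Arhgap24* (2.87), *Stmn1* (2.72), *S100a10* (2.65), *Clic4* (1.77), a chloride channel-like protein, and *Kif2c* (1.73), a microtubule-depolymerizing kinesin. With sample 11 among the adults, 2 of these 23 genes were called in High over adult.

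**Figure D4:**
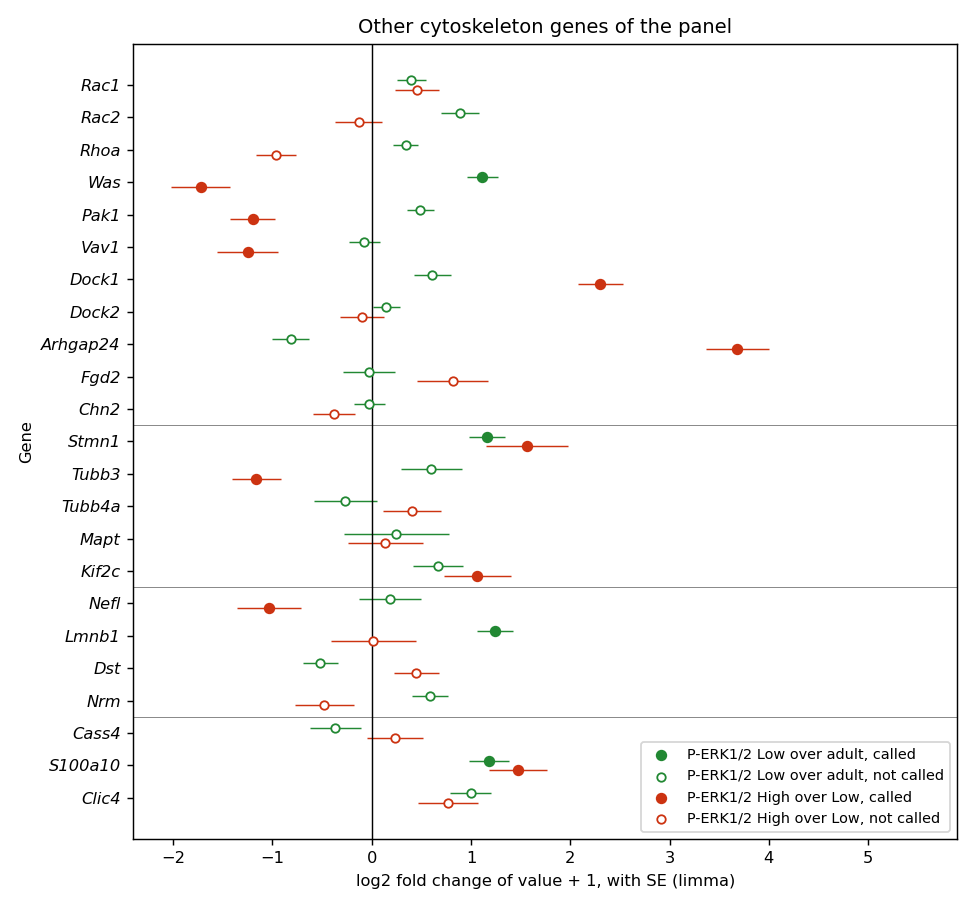
Log2 fold change (x axis, value + 1) with SE of 23 other cytoskeleton genes for P-ERK1/2 Low over adult and High over Low. Grey lines divide actin signalling, microtubules, intermediate filaments with nuclear envelope, and adhesion with membrane linkers, from top to bottom. *Arhgap24* and *Dock1* lie farthest to the right in High over Low and *Was* farthest to the left.

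Markers of microglia and of other cells were summed in each sample. The summed value of 13 microglia genes was 12918 to 20527 in High, 12143 to 13680 in Low and 11871 to 13143 in adult. *P2ry12*, the defining microglia gene of this list, was above background in 4 of 4 High, 0 of 4 Low and 2 of 3 adult samples, and 6 of the 13 genes were above background in all Low samples. In High over Low, 5 of the 13 were called higher (*P2ry12*, *Tmem119*, *Sall1*, *Gpr34* and *Itgam*) and 0 lower by limma, beside 28.2% of all genes called higher, and 10 of the 13 were above 0. Several lists of other cells also had higher sums in P-ERK1/2 High. The sum of 7 astrocyte genes was 1442 to 2164 in High and 607.3 to 849.2 in Low, with *Gja1*, *Kcnj10* and *Sox9* called higher, while 2 of the 7 log2 fold changes of High over Low were below 0. The sum of 9 endothelial genes was 804.6 to 1559 and 343.6 to 545.6, with *Cldn5*, *Flt1*, *Emcn* and *Esam* called higher and 3 of the 9 changes below 0. Astrocytes and endothelium both express vimentin, and their part in the *Vim* and *Msn* values was not tested. For 12 neuronal genes the sums were 411.8 to 674.9 in High and 260.9 to 352.8 in Low, with 3 called higher and 5 changes below 0. The 9 T and NK cell genes gave 289.7 to 1089 and 168.6 to 223.6, with *Cd3e*, which alone reached 800.5, and *Cd3g* called higher and 3 changes below 0, and the 5 genes of border macrophages and monocytes 337.0 to 554.7 and 179.2 to 248.9. The 16 oligodendrocyte genes gave 631.0 to 1081 and 549.7 to 662.6, with 3 called higher, *Cnp* lower and 7 changes below 0, and the 5 neutrophil genes 201.6 to 550.2 and 361.0 to 478.9, with none called and all 5 changes below 0. In adult samples the sums were 499.1 to 694.0 for astrocytes, 394.8 to 589.9 for endothelium, 218.9 to 449.3 for neurons, 142.1 to 301.4 for T and NK cells, 188.7 to 288.2 for border cells, 453.0 to 835.1 for oligodendrocytes and 659.1 to 1011 for neutrophils. *Aldh1l1*, *Cldn5*, *Rbfox3*, *Ccr2* and *Cd3e*, which define 5 of these lists, were at 0 in no kept sample. They were above background in no Low sample and in 3 or 4 of 4 High samples, and *Ly6g* was above background in none of either. The background itself lay at values of 69.2 to 116.9 in Low and 26.1 to 39.5 in High, and the values of *Ccr2* (up to 42.1 in Low and 28 to 54.3 in High) and *Aldh1l1* (37.5 to 73.8 and 58.4 to 107.2) overlapped between these groups.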

How the data were processed

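The nCounter panel was run on sorted microglia in 12 samples, of which 11 were compared. The authors normalized the counts in nSolver (version not given in the sources used here) and deposited 1 signal value per gene and sample, the count multiplied by 1 factor per sample that equalizes the geometric mean of 13 housekeeping genes. All gene values divided by their factor came out whole (tolerance 0.1), apart from 16 values of sample 11 at a floor, and these counts gave depth and background. All sample columns were mapped by sample number. Differences on the scale log2(value + 1) were fitted with limma 3.58.1 (R 4.3.3), two-sided and without a filter, on the 2 groups compared (adjusted p by Benjamini-Hochberg over 770 genes). The test was tried on simulated data. Nothing says that samples were separate experiments beyond their labels, so p-values measure the spread between these samples.

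The 7 genes, the lists and the tests were chosen with earlier results of these data known. The other genes named were, of 23 cytoskeleton genes, up to 6 with the largest change among those called, the 3 closest patterns per gene, and called or defining markers, a few of which are not reported here. Alternatives were the offset (0.1, 20), a mean value of at least 50, 6 other scalings, a shared spread, unequal variances, an adjusted p under 0.05, sample 11 and leaving out each sample.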

Additional observations from a re-analysis of the deposited data

Results flagged for a closer look

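The *Cnn2* value of P-ERK1/2 High sample 7 lay apart from its group. It was 658, against 1214 for the next sample, and on the log2 scale this gap was 0.908 of the range of the 4 samples, above the 95% limit of Dixon for a group of 4. It was the 1 such case among 14 sets of a gene and a group of 4 samples, and chance gives about 1 in 20. The same sample was the lowest of its group for 6 of the 7 genes.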

How the results depend on the processing

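No paired analysis was possible because the labels number the samples from 1 to 12 across the groups, which share no number. The planned count test was not run. The deposited columns hold scaled gene values beside unscaled control counts, although whole counts of the genes could be recovered. Of the 7 genes, 3 were called in High over Low. This became 5 with the panel total (beside 370 of all 770 genes), the positive controls (659) and the total without *Vim* (342). The genes called differed, as *Cnn2* was called lower with the panel total (-1.27) and higher with the positive controls (1.75). *Fscn1* lost its call with unequal variances, with 6 stable housekeeping genes (-0.76) and with the positive controls. For Low over adult the 1 call became 0 with the panel total, quantile normalization, unequal variances, the positive controls and the total without *Vim*. For High over adult the 3 calls became 5 with 6 stable housekeeping genes (beside 348 of all 770 genes) and with the positive controls (421), and 1 with sample 11 (49). Leaving out 1 sample gave 3 to 4, 1 to 3 and 2 to 4 calls in these comparisons, beside 235 to 310, 75 to 95 and 225 to 303 over all genes. Of the 23 other cytoskeleton genes, the 10 calls of High over Low became 5 with unequal variances (beside 189 of all 770 genes) and 17 with the positive controls (659). The 4 of Low over adult became 1 with the panel total (83 of all genes), the total without *Vim* (83) or sample 11 (34). They became 2 with quantile normalization (87) or a shared spread (75). The 7 of High over adult became 15 with the panel total (402 of all genes) or the total without *Vim* (359), 11 with the positive controls (421) and 2 with sample 11 (49). Leaving out 1 sample gave 7 to 10, 4 to 6 and 6 to 8. Among the 7 genes and the other cytoskeleton genes named with a call in High over Low, those that reversed with the positive controls were *Fscn1* (0.68), *Was* (0.25) and *Vav1* (0.73). Marker genes were not examined under these settings. Over all genes, the 291 calls of High over Low became 659 with the positive controls and 189 with unequal variances, the 83 of Low over adult 226 with the positive controls, 54 with unequal variances and 34 with sample 11, and the 284 of High over adult 173 with unequal variances and 49 with sample 11. The cause was not tested. Of 336 fold changes of the 7 genes recomputed under settings that can change them, 231 moved by less than the spread between replicates. These include all 154 from leaving out 1 sample, a step that can hardly move a group mean further than that. The 2 offsets also moved these high values little. Another 104 moved further, all with other scalings or with sample 11, some with a change of sign in a difference that was not called. In addition, 1 called difference reversed. Of 180 recomputed counts 150 stayed within 1.5 times, and 277 of 320 recomputed values of named other cytoskeleton genes kept direction and call. Depth did not limit the detection of the 7 genes, whose counts exceeded background in all samples.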
